A study of Mus musculus with 20 samples.

Results

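Regulatory T cells (Tregs), which are marked by the transcription factor Foxp3 and restrain other immune cells, were compared after 90 min with IL-2 and without stimulation. The comparison uses 6 of the 20 libraries of the series, 3 titled as Tregs with IL-2 and 3 titled as Tregs at 0 hr, and each group is numbered 1 to 3. The Tregs came from spleen and lymph node of B6-Foxp3EGFP mice, in which GFP reports Foxp3, and were enriched for CD4+ cells and sorted on GFP, so all 6 libraries share this allele, while C57BL/6N is entered as their strain. One group received IL-2 at 200 nM and the other received no cytokine. The unstimulated libraries are of 0 hr, and no Tregs were kept for 90 min without cytokine. The effects of IL-2 and of 90 min in culture therefore cannot be told apart, and a change with IL-2 below means the difference between these 2 groups. The study lists female mice of the Foxp3EGFP strain, and the labels give neither their age nor whether the 3 libraries of a group came from separate animals, so p-values measure the spread between these libraries, which may be technical. The 3 unstimulated libraries hold 39933483 to 51867572 reads on genes and the 3 IL-2 libraries 41897956 to 50405633.

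IL-2 binds a receptor of an α chain (Il2ra, CD25), a β chain (Il2rb) and the common γ chain (Il2rg). The receptor activates the kinases JAK1 and JAK3, which phosphorylate STAT5, and STAT5 then moves to the nucleus and binds DNA at GAS elements. Tregs keep CD25 high and depend on IL-2 made by other T cells. In them STAT5 sustains Foxp3, and it also switches on the SOCS and CIS proteins that dampen the same receptor.

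Of 15009 genes tested, 117 rose with IL-2 at 90 min (0.78%) and 11 fell (0.0733%), 128 in all (0.853%). A gene is said here to have risen or fallen when its adjusted p-value was under 0.05 in edgeR's quasi-likelihood test over the 15 Treg libraries of the series, adjusted by the Benjamini-Hochberg method over all genes tested. The genes that rose did so by 0.70 to 4.26 on the log2 scale (median 1.65), and 108 of them rose more than 2-fold. They included the feedback inhibitors Cish, Socs1 and Socs2, the Treg factors Foxp3, Ikzf4 and Lrrc32, and the chromatin enzyme Ezh2. The genes that fell, among them Dusp1, Ddit4 and Cd5, fell by 0.91 to 1.99 on the log2 scale. With the replicate number as a block, 206 genes rose (1.37%) and 69 fell (0.46%), 275 in all (1.83%), and these included all 128. The median of all genes tested was -0.06 on the log2 scale, and 2068 genes passed 0.05 before adjustment.

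**Figure D1:**
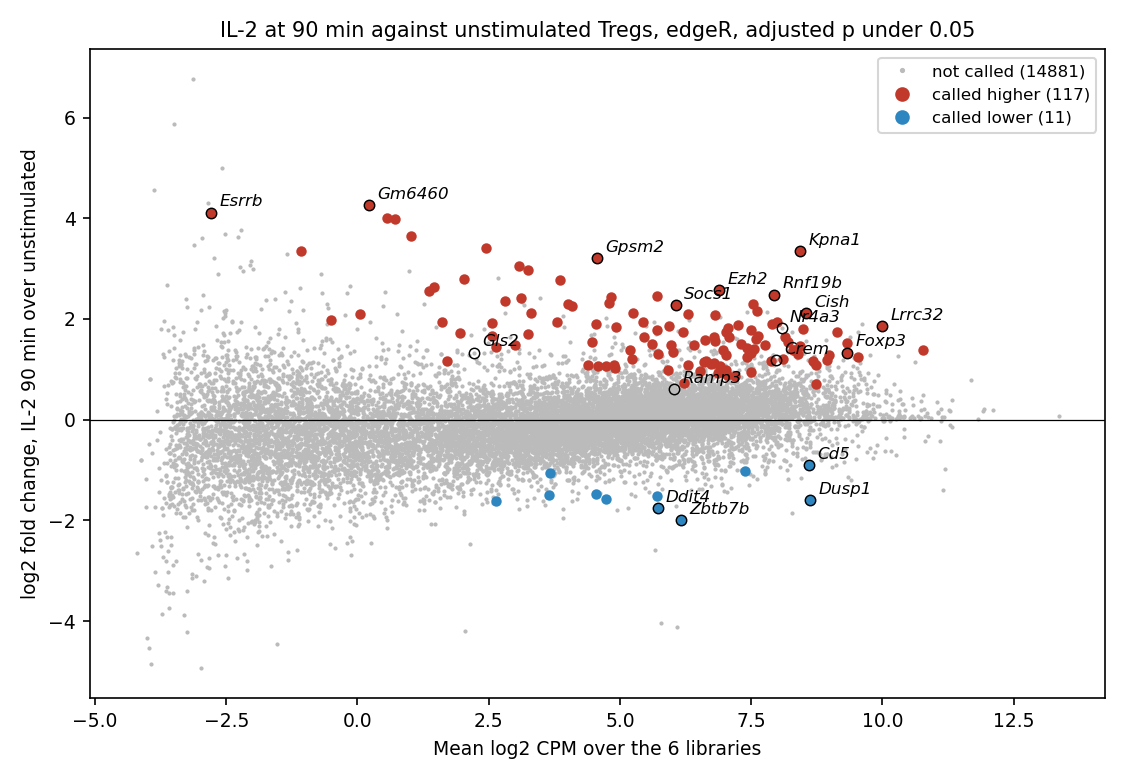
Each point is 1 of 15009 genes, placed by its mean log2 CPM over the 6 libraries (x axis) and its log2 fold change with IL-2 at 90 min (y axis). The 117 genes that rose are red and the 11 that fell are blue. Open black circles mark the labelled genes, whether called or not. Ramp3 at 0.61 and Crem at 1.18 are among those that did not pass the test.

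Unstimulated replicate 1 stood apart from the other unstimulated libraries. It differed more than 2-fold from unstimulated replicate 2 at 4720 genes and from replicate 3 at 4561 genes, whereas replicates 2 and 3 differed at 943. Among the IL-2 libraries these counts were 2825, 2724 and 1328, in the same order. Without unstimulated replicate 1, 1098 genes rose (7.09%) and 899 fell (5.8%), 1997 of 15494 genes in all (12.9%), and all 128 genes were again among them in the same direction. Without unstimulated replicate 2 or 3, 46 and 44 genes were called, and without IL-2 replicate 1, 2 or 3, 112, 65 and 51. With replicate 2 left out of every group edgeR called 1 gene, Gpsm2, and with replicate 3 left out it called 0 (534 at an unadjusted p under 0.05), while the fits with the block called 26 and 15. In all of these fits the 128 genes kept the sign of their change. At Ramp3, Gls2, Crem, Stat5a and Nr4a3, described further on, the RPKM of unstimulated replicate 1 lay within or above the range of the IL-2 libraries, whereas at Cish, Socs1 and Ezh2 it lay below all of them, near or below the other unstimulated libraries. Whether this library is what its label says is therefore in doubt and was not tested. The label was taken as given, and every unstimulated mean and fold change with all libraries includes it. Counts of called genes on the lists are given with all libraries and then without it. Other fits lowered some of them. Without unstimulated replicate 2 or 3, 3 and 2 STAT5 targets were called, against 4 with all libraries. Of the Treg identity genes 1 was called in each, against 3. On the lists of MAP kinase and NF-κB feedback and of stress genes 0 were called, against 1 and 2. With replicate 2 or 3 left out of every group, 0 STAT5 targets and 0 Treg identity genes were called.

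**Figure D2:**
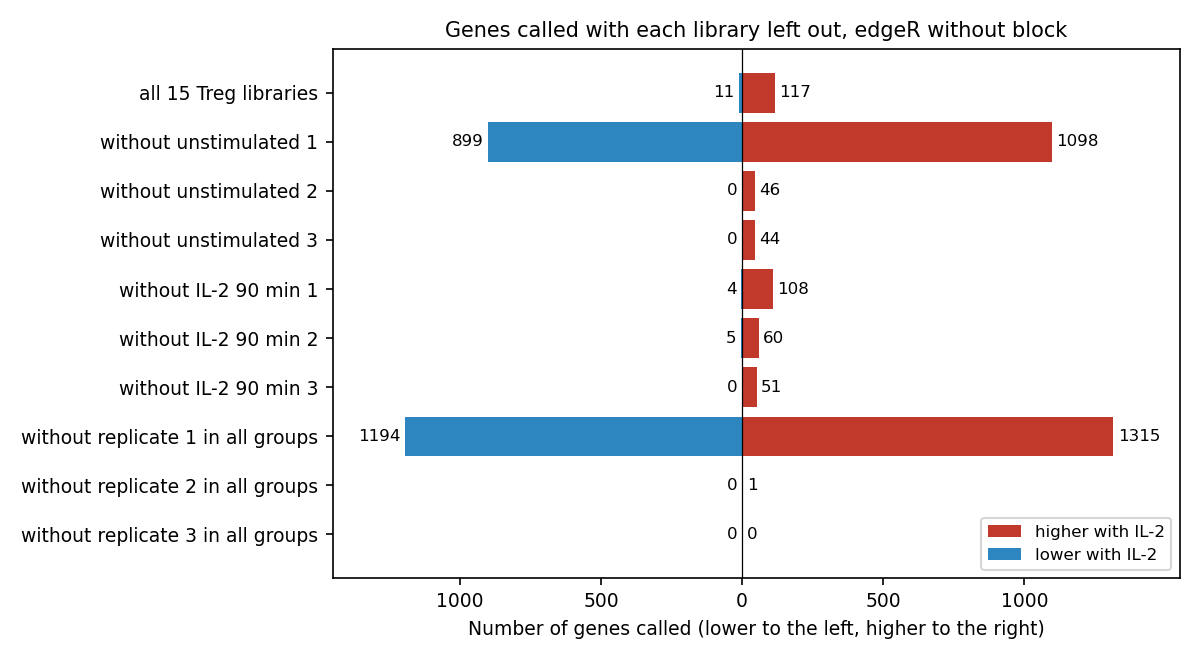
Each row (y axis) is an edgeR fit without the block that uses all 15 libraries or leaves out 1 library or 1 replicate number, and the bars give the number of genes called lower (left, blue) and higher (right, red) with IL-2 (x axis). The fits without unstimulated replicate 1 and without replicate 1 in all groups called 1997 and 2509 genes, and none of the others shown called more than the 128 of all libraries.

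The sort was checked against marker genes. T cell and Treg markers (7 measured, among them Cd3e, Cd4, Il2ra and Ctla4) summed to an RPKM of 1180.1 to 1263.6 in unstimulated and 1197.6 to 1351.3 in IL-2 libraries, where RPKM is the read count scaled to exon length and library size. Markers of CD8+ T and NK cells (6 measured) summed to 7.69 to 15.8 and 7.62 to 8.38, and dendritic markers (7 measured) to 2.28 to 3.46 and 2.09 to 3.3. B cell markers (9 measured) summed to 3.21, 10.3 and 21.1 in unstimulated replicates 1 to 3, and to 2.26, 3.53 and 11.1 with IL-2. Macrophage and monocyte markers (11 measured) summed to 18.6, 111 and 76.7 without IL-2 and to 13, 50.2 and 40 with it, lower in each same-numbered pair. Neutrophil markers (8 measured) reached 225 and 185 in replicate 3 of the groups and stayed between 2.64 and 6.66 elsewhere, and erythroid and platelet markers (12 measured) likewise reached 359 and 199 in replicate 3. No marker list had a member at 0 in all 6 libraries, and with all libraries Foxp3 alone of all these markers rose and none fell. Without unstimulated replicate 1 the dendritic marker Zbtb46 also rose and the B cell marker Cd22 fell (adjusted p = 0.015 and 0.0381), named after their values were seen. With the block, Cd22, Vcam1 and Klf1, a marker each of B cells, macrophages and erythroid cells, fell (adjusted p = 0.0259, 0.00518 and 0.0386). The part of such cells in the results was not tested, and fewer cells of a type and less RNA per cell cannot be told apart in bulk RNA.

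All gene lists used here were put together with earlier results of these data known, so their counts are descriptions and no independent evidence. Among the STAT5 targets and feedback inhibitors, 4 of 25 genes tested rose and 0 fell, against 0.78% and 0.0733% of all genes, and Myc and Mcl1 rose as well with the block. Without unstimulated replicate 1, 11 rose and 1 fell, against 7.09% and 5.8% of all genes. The median change of these 25 genes was 0.83 on the log2 scale against -0.06 over all genes, and 0.75 against 0.03 without that library. Cish (chromosome 9, 107296659 to 107302784 in GRCm38) encodes CIS, an inhibitor that binds the activated IL-2 receptor. Its RPKM was 54.7, 65.5 and 54 in unstimulated replicates 1 to 3 and 238, 262 and 187 with IL-2. Every IL-2 library thus lay above every unstimulated one. Some exon bases of Cish are shared with overlapping gene models, as they are for Gpsm2 and Ezh2 further on, and strand in counting is not stated. The log2 fold change was 2.12 (standard error 0.19, edgeR adjusted p = 7.59e-05), or 4.35-fold.

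The starts of the 117 genes that rose were searched for a DNA motif, which was chosen after the values were seen. The motif TTCNNNGAA, the core of the GAS element that STAT5 binds, reads the same on both strands and was searched in windows from 250 bases before to 50 bases after annotated starts, taken from RefSeq (GRCm38.p6). Of the 117 genes, 93 matched a window by symbol, and 19 of these (20.4%) held the motif, against 8.45% of the 10931 tested genes with a window and 9.55% of all 27025 genes with one. By window the shares were 16.5% of 121, 7.02% of 13848 and 8.3% of 32851. None of the 9 genes with a window that fell held it. The 19 genes include Cish, Foxp3, Txnrd1, Aldh18a1, Fas, Ripk1, Gbp5 and Esrrb, and also Gm6460 and 4933402N22Rik, which are near-identical copies. Of the genes that rose without unstimulated replicate 1, 8.9% held it. A match is a description of these letters and not a binding site.

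The motif lies repeated in a short stretch at the start of Cish, and in pairs before the starts of Gbp5 and Aldh18a1, and 1 start of Foxp3 has it once. These stretches are shown because they belong to genes that rose, with the motif in capitals, 5′ to 3′ on the strand of the gene. For Cish (chr9:107296654-107296683, plus strand) the 30 bases run from 5 before to 25 after the start, and the motif begins at bases 1 and 12. For Gbp5 (chr3:142496684-142496933, plus strand), Aldh18a1 (chr19:40588464-40588713, minus strand) and Foxp3 (chrX:7580233-7580482, plus strand) the 250 bases before the start are given. There it begins 245 and 52 bases before the start of Gbp5, 154 and 39 before that of Aldh18a1, and 139 before that of Foxp3.
Cish: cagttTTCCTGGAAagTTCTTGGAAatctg
Gbp5: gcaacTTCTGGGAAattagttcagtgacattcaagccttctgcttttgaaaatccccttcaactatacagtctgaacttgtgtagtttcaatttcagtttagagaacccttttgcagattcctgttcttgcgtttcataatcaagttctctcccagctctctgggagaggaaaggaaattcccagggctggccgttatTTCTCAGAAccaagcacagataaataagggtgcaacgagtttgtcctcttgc
Aldh18a1: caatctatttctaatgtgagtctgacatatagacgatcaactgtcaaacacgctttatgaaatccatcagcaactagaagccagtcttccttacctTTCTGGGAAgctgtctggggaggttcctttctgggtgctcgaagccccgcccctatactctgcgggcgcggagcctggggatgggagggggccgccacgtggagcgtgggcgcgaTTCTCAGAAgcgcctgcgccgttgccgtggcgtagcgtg
Foxp3: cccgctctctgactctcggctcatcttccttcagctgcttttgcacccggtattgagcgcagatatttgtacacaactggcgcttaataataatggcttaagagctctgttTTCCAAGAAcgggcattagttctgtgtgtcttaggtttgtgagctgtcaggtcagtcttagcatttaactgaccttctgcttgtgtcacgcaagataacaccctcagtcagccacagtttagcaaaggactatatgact

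Socs1 (chromosome 16, 10783808 to 10785536) encodes an inhibitor of the JAK kinases. Its RPKM was 10.3, 25.4 and 15.2 without and 120, 67.9 and 39.1 with IL-2. The log2 fold change was 2.28 (standard error 0.38, edgeR adjusted p = 0.0111), and the pairs with the numbers 1, 2 and 3 gave 3.31, 1.79 and 1.64. The groups did not overlap, but the IL-2 libraries spread more than 3-fold. Socs2, of the same family, had an RPKM of 6.51, 18.1 and 15.5 without and 48.9, 35.2 and 35.4 with IL-2 (log2 fold change 1.74, standard error 0.28, edgeR adjusted p = 0.00762). Socs3, which acts mainly on receptors of the IL-6 type, had 54.2, 50.4 and 81.7 without and 95.4, 78.8 and 86.9 with IL-2, groups that overlapped (log2 fold change 0.61, adjusted p = 0.286).

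Pim2, a kinase that supports survival and growth, rose from an RPKM of 8.15, 10.8 and 10.4 to 22, 36.1 and 30.9 (log2 fold change 1.78, standard error 0.38, edgeR adjusted p = 0.0426). Its relative Pim1 was abundant in both groups, at 243 ± 84.6 and 283 ± 32.9 (SD, n = 3 each), with a log2 fold change of 0.32 (adjusted p = 0.646). Myc, the growth regulator, had an RPKM of 15.2, 35.9 and 27.1 without and 53.8, 148 and 92.4 with IL-2. Each IL-2 library of Myc was above all unstimulated ones, but the groups spread widely, and the log2 fold change of 2.13 had an adjusted p of 0.0606 without and 0.000198 with the block. Mxd1, whose product competes with Myc for their partner Max, rose with little spread, from 25.8 ± 1.86 to 68.5 ± 5.77 (SD, n = 3 each). Its log2 fold change was 1.54 (standard error 0.20, edgeR adjusted p = 0.00174). Of the 34 tested genes of the Myc network and ribosome biogenesis, Mxd1 alone rose with all libraries, against 0.78% of all genes. Myc was added under the block. Without unstimulated replicate 1, 3 of the 34 rose, against 7.09% of all genes. The median log2 fold change was 0.17, and 0.10 without that library.

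Of the survival genes of the BCL2 family, none of 17 tested rose or fell with all libraries and no block (median log2 fold change 0.06). Over all genes 0.78% rose and 0.0733% fell there. Without unstimulated replicate 1, 2 of the 17 rose (median 0.45), against 7.09% of all genes. Mcl1, which protects against apoptosis, went from an RPKM of 145 ± 41.7 to 237 ± 31.4 (SD, n = 3 each), with an adjusted p of 0.112 without and 0.0214 with the block. Bcl2, the founding member, had an RPKM of 11.1, 35.8 and 25.8 without and 25.6, 38.6 and 28.8 with IL-2, groups that overlapped (log2 fold change 0.56, adjusted p = 0.447). Bcl2l1 (Bcl-xL) had 15.9 ± 1.83 and 28.8 ± 8.84 (SD, n = 3 each; log2 fold change 0.96, adjusted p = 0.187). It passed the threshold without unstimulated replicate 1 (adjusted p = 0.0498).

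The effector genes Ifng, Gzmb and Lta did not pass the test at 90 min. Ifng, a cytokine of inflammation, had an RPKM of 2.4, 4.46 and 8.83 without and 0.591, 7.21 and 2.7 with IL-2, in no order between the groups. Gzmb, a protease of cytotoxic granules, had 5.89 ± 2.73 and 9.44 ± 4.41 (SD, n = 3 each; adjusted p = 0.641). Lta, the ligand lymphotoxin α, had 3.84, 22.3 and 19 without and 71, 46.6 and 35.3 with IL-2, so the groups did not overlap. Its log2 fold change was 1.93 (standard error 0.50, adjusted p = 0.112, 0.0808 with the block, and 0.0312 without unstimulated replicate 1).

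**Figure D3:**
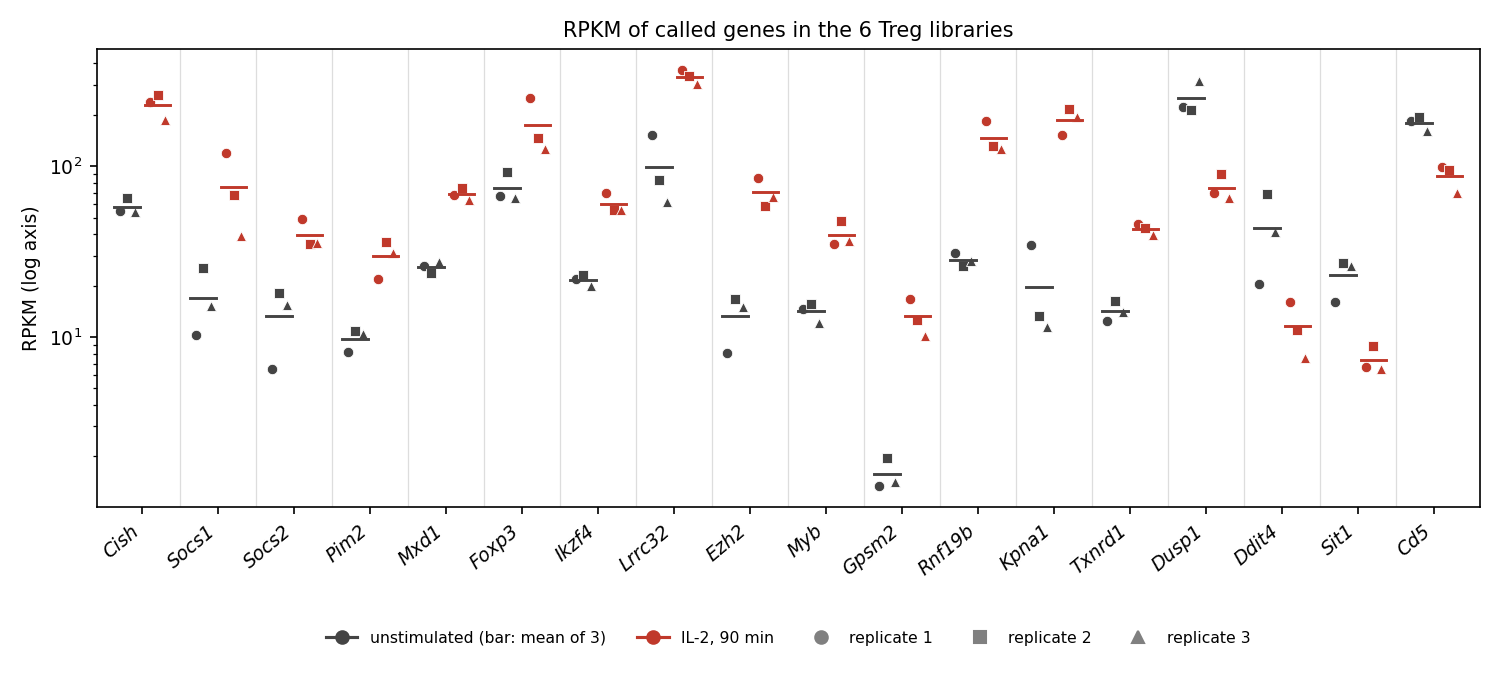
RPKM (y axis, log scale) of 18 genes (x axis) that rose or fell, with 1 point per library, shapes for the replicate numbers and a bar for the mean of 3 libraries. In the 14 genes from Cish to Txnrd1 every IL-2 library lies above every unstimulated one, and in Dusp1, Ddit4, Sit1 and Cd5 every one lies below.

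None of the 9 genes of the IL-2 receptor, the JAKs and the STATs passed the test with all libraries (median log2 fold change 0.52). Over all genes 0.78% rose and 0.0733% fell there. Without unstimulated replicate 1, 3 of the 9 rose (median 0.57), against 7.09% of all genes. Il2ra had an RPKM of 62.7, 117 and 91.5 without and 175, 151 and 127 with IL-2, so that the groups did not overlap, but its log2 fold change of 0.89 had an adjusted p of 0.165 (0.0793 with the block). Il2rb had 248 ± 49.6 and 317 ± 82.5, and Il2rg had 258 ± 11.1 and 219 ± 17.8 (SD, n = 3 each; adjusted p = 0.354 and 0.931). Stat5a had 145, 29.8 and 24.2 without and 127, 113 and 114 with IL-2, so that unstimulated replicate 1 lay at the IL-2 level. Its log2 fold change was 0.87 (adjusted p = 0.494) with all libraries and 2.36 (adjusted p = 4.72e-05) without unstimulated replicate 1.

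Of 23 tested genes of Treg identity and suppression, 3 rose and 0 fell, against 0.78% and 0.0733% of all genes, and Tnfrsf18 rose as well with the block. Without unstimulated replicate 1, 11 rose and 1 fell, against 7.09% and 5.8% of all genes, and the median log2 fold change went from 0.47 to 0.91. Foxp3 (chromosome X, 7579676 to 7595243) had an RPKM of 67, 92.8 and 65.2 without and 252, 146 and 126 with IL-2. The groups did not overlap, and the log2 fold change was 1.33 (standard error 0.25, edgeR adjusted p = 0.0217), or 2.52-fold. Exons of Foxp3 overlap those of Ccdc22 and of the noncoding RNA Flicr, and because strand in counting is not stated, reads in these overlaps are uncertain. Ikzf4 (Eos), a zinc finger protein that binds Foxp3, had close replicates, with 21.9, 23.1 and 20 without and 69.3, 55.3 and 55.1 with IL-2. Its log2 fold change was 1.60 (standard error 0.17, edgeR adjusted p = 0.000295). Its relative Ikzf2 (Helios) stayed at 68.2 ± 7.37 and 63.8 ± 5.1 (SD, n = 3 each; adjusted p = 0.969).

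Lrrc32 encodes GARP, the surface protein that holds latent TGF-β on Tregs. Its RPKM was 153, 83.4 and 61.8 without and 366, 336 and 304 with IL-2, a log2 fold change of 1.85 (standard error 0.32, edgeR adjusted p = 0.012). Furin, a protease that cleaves the precursor of TGF-β, rose from 16 ± 3.33 to 49.5 ± 11.1 (SD, n = 3 each; log2 fold change 1.77, edgeR adjusted p = 0.0341). Tnfrsf18 (GITR) had 274, 124 and 93 without and 512, 394 and 278 with IL-2 (adjusted p = 0.12, and 0.0186 with the block). Icos, a costimulatory receptor, had 173, 53.8 and 50.2 without and 220, 200 and 181 with IL-2 (adjusted p = 0.283, and 0.00159 without unstimulated replicate 1). In both genes the unstimulated value of replicate 1 was the highest of its group. Ctla4 and Il10, which act in suppression, had overlapping groups, with ranges of 273 to 589 and 386 to 589 for Ctla4 and means of 17.5 ± 9.28 and 15.9 ± 4.36 for Il10 (SD, n = 3 each).

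Ezh2 (chromosome 6, 47530274 to 47595270) encodes the methyltransferase of Polycomb repressive complex 2, which marks silent chromatin. Its RPKM was 8.02, 16.7 and 14.9 without and 85.7, 58.9 and 66.1 with IL-2, with no overlap. The log2 fold change was 2.57 (standard error 0.27, edgeR adjusted p = 0.000274), or 5.93-fold. Myb, a transcription factor of early lymphocytes, rose from 14.1 ± 1.85 to 39.7 ± 6.75 (SD, n = 3 each), and its relative Mybl1 from the low level of 0.208 ± 0.08 to 1.11 ± 0.194. The log2 fold changes were 1.64 and 2.56 (edgeR adjusted p = 0.012 and 0.0166). Mir17hg, the host transcript of the miR-17~92 microRNAs, rose from 6.73 ± 1.96 to 33.7 ± 9.13 (SD, n = 3 each; log2 fold change 2.46, edgeR adjusted p = 0.00286).

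Gpsm2 (chromosome 3, 108678270 to 108722331) had the lowest adjusted p of all genes. It encodes LGN, which binds G protein α subunits and orients the mitotic spindle. Its RPKM was 1.34, 1.95 and 1.42 without and 16.8, 12.6 and 10.2 with IL-2. The log2 fold change was 3.21 (standard error 0.22, edgeR adjusted p = 1.26e-05), or 9.23-fold, and the pairs gave 3.41, 3.06 and 3.12. Kpna1, an importin that carries proteins into the nucleus, went from 34.5, 13.3 and 11.4 to 153, 216 and 194 (log2 fold change 3.35, standard error 0.49, edgeR adjusted p = 0.00426). Rnf19b, a ubiquitin ligase known from cytotoxic lymphocytes, went from 31.2, 25.9 and 27.7 to 183, 131 and 127 (log2 fold change 2.48, standard error 0.21, edgeR adjusted p = 6.82e-05). For these genes too, every IL-2 library lay above every unstimulated one.

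Txnrd1, Aldh18a1, Ppp1r3b and Rragd had adjusted p-values among the 10 lowest. Txnrd1, the cytosolic thioredoxin reductase, rose from an RPKM of 12.5, 16.3 and 14 to 45.7, 43.7 and 39.7 (log2 fold change 1.74, standard error 0.15, edgeR adjusted p = 7.59e-05). It was the only one of 18 tested genes of the thioredoxin and glutathione systems that rose with all libraries (median log2 fold change 0.13), and 2 rose and 1 fell without unstimulated replicate 1. Aldh18a1, the first enzyme of proline synthesis from glutamate, rose from 12.9, 21.1 and 16.8 to 77.9, 68.5 and 74.5 (log2 fold change 2.29, standard error 0.21, edgeR adjusted p = 7.80e-05). Ppp1r3b, which directs a phosphatase to glycogen, and Rragd, a GTPase that links amino acids to mTORC1, rose by log2 fold changes of 2.29 and 1.86 (edgeR adjusted p = 0.000105 and 0.000295). Trib3, a pseudokinase of the amino acid stress response, rose from 1.31 ± 0.0906 to 6.68 ± 4.23 (SD, n = 3 each; log2 fold change 2.41, edgeR adjusted p = 0.0217). None of 25 genes of glycolysis and nutrient transport and none of 15 of cholesterol synthesis rose or fell with all libraries (medians 0.11 and 0.27). Without unstimulated replicate 1, 6 genes of glycolysis and transport rose and 1 fell, and 3 of cholesterol synthesis rose and 1 fell (medians 0.29 and 0.31). Over all genes 7.09% rose and 5.8% fell in that fit, and 0.78% and 0.0733% with all libraries.

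The list of matrix, adhesion and surface genes, like the others, was put together with earlier results of these samples known and is no independent evidence. Of its 18 tested genes 7 rose and 1 fell, and 12 rose and 1 fell without unstimulated replicate 1. The 7 include Gpsm2, which binds G proteins, the nuclear receptor Esrrb and the motor myosin Myo6. The count is therefore not one of matrix and surface proteins alone. The shares of all genes were 0.78% and 0.0733%, and 7.09% and 5.8% without that library. Lama5, a chain of the basement membrane protein laminin, rose from 0.24, 0.475 and 0.322 to 2.6, 1.57 and 2.19 (log2 fold change 2.78, standard error 0.36, edgeR adjusted p = 0.0018). Ecm1, a secreted matrix protein, rose from 41.3, 60.2 and 44.4 to 145, 177 and 173 (log2 fold change 1.94, edgeR adjusted p = 0.00329). Podxl and Sema7a, an adhesion sialomucin and a semaphorin, rose by log2 fold changes of 1.98 and 1.45, and the motor myosin Myo6 by 2.44 (edgeR adjusted p = 0.0297, 0.0036 and 0.000295). The secreted guidance cue Ntn1 fell.

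Several of the largest fold changes came from genes with few reads. Metrnl, a secreted factor, went from 0.828 ± 0.211 to 6.59 ± 3.1, Yes1, a kinase of the Src family, from 0.595 ± 0.592 to 4.39 ± 1.47, and the potassium channel Kcnj15 from 0.271 ± 0.209 to 2.52 ± 0.524 (SD, n = 3 each). Lrrc66 and Cxadr, the coxsackievirus and adenovirus receptor, reached 2.17 ± 0.433 and 0.796 ± 0.26 (SD, n = 3 each). Their log2 fold changes were 3.06, 2.98, 3.41, 2.80 and 2.63, in the order named. Esrrb, an orphan nuclear receptor, had 0, 1 and 1 reads without and 15, 14 and 9 reads with IL-2, so its log2 fold change of 4.11 rests on very few reads. Yes1 and Kpna1 were higher in unstimulated replicate 1 than in the others, and without that library their log2 fold changes were 4.39 and 4.18.

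Gm6460, 4933402N22Rik, Gm6455 and Speer1-ps1 belong to a family of near-identical genes on chromosome 5 named after Speer, whose members are otherwise known from testis. These 4 were the only ones called of 6 tested on a list of 17, as they were without unstimulated replicate 1, and 5 of the 17 had no read in the 6 libraries. Over all genes 0.78% rose with all libraries and 7.09% without unstimulated replicate 1. As near-identical copies, the 4 are not separate results. Gm6460 had an RPKM of 0.196, 0.1 and 0.421 without and 1.77, 3.38 and 6.93 with IL-2 (log2 fold change 4.26, standard error 0.82, edgeR adjusted p = 0.0268). The other 3 had means of 3.64 to 4.19 with IL-2 and of 0.262 to 0.378 without, and log2 fold changes of 4.00, 3.99 and 3.65. In all 4 the IL-2 library of replicate 3 was the highest and that of replicate 1 the lowest. Reads of such copies may be split between them, so the gene that gave rise to them is uncertain.

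Fas, the death receptor, rose from 10.1, 20.5 and 24.6 to 42.2, 50.7 and 44.4 (log2 fold change 1.49, standard error 0.26, edgeR adjusted p = 0.0132). It was the only one of 19 tested TNF ligands and receptors that rose with all libraries and no block, and 7 rose without unstimulated replicate 1. DESeq2 called 6 of them, counted in either direction, and 564 of 20231 genes over all. Traf6, an adaptor of NF-κB signalling, rose from 14.8 ± 1.37 to 35 ± 2.74, and Ripk1, a kinase downstream of TNF receptors, from 14.4 ± 0.114 to 25.8 ± 3.59 (SD, n = 3 each; edgeR adjusted p = 0.00595 and 0.0158). Gbp5, a GTPase of the interferon response, rose from 10, 21.4 and 19.5 to 66.1, 55.3 and 40.8 (log2 fold change 1.82, standard error 0.26, edgeR adjusted p = 0.0036). It was 1 of 22 interferon-stimulated genes tested and the only one that rose with all libraries (median -0.15), and 2 rose and 5 fell without unstimulated replicate 1. Pdia4, a protein disulfide isomerase of the endoplasmic reticulum, was the only one of 15 chaperones that rose with all libraries and no block (log2 fold change 1.42, edgeR adjusted p = 0.0239), and 2 rose and 3 fell without unstimulated replicate 1. Beside these 3 lists, 0.78% of all genes rose and 0.0733% fell with all libraries. Without unstimulated replicate 1 the shares of all genes were 7.09% and 5.8%.

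The 11 genes that fell include inhibitors of signalling. All 11 were called again without unstimulated replicate 1. None of them was called without unstimulated replicate 2 or 3 or without IL-2 replicate 3, as those fits called 0 genes lower. Without IL-2 replicate 1 or 2, 4 and 5 genes were called lower, and 1 in a fit of only the 2 groups compared. Dusp1, a phosphatase that switches off MAP kinases, fell from an RPKM of 221, 214 and 315 to 69.8, 90.3 and 65 (log2 fold change -1.60, standard error 0.34, edgeR adjusted p = 0.0447). Ddit4 (REDD1), an inhibitor of mTORC1, fell from 20.5, 69 and 41.5 to 16, 11 and 7.59 (log2 fold change -1.76, standard error 0.37, edgeR adjusted p = 0.04). Cd5 and Sit1, surface and adaptor proteins that restrain T cell receptor signals, fell from 180 ± 16.5 to 87.8 ± 15.9 and from 23.1 ± 6.15 to 7.36 ± 1.29 (SD, n = 3 each; log2 fold changes -0.91 and -1.48, edgeR adjusted p = 0.0322 and 0.0156). In these genes every IL-2 library lay below every unstimulated one.

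Ntn1, Sdhaf1, an assembly factor of succinate dehydrogenase, and the GTPase Rab37 fell by 1.62, 1.58 and 1.51 on the log2 scale (edgeR adjusted p = 0.0118, 0.0119 and 0.0364). The thromboxane receptor Tbxa2r fell by 1.49, and Tnfaip8l1 and the exchange factor Cyth4 by 1.07 and 1.03 (edgeR adjusted p = 0.0166, 0.0234 and 0.0312). Zbtb7b (ThPOK), the factor that fixes the CD4 lineage, had an RPKM of 6.89, 50 and 38.5 without and 8.7, 6.58 and 5.7 with IL-2 (log2 fold change -1.99, edgeR adjusted p = 0.0426). It was singled out after its values were seen, since it alone of the 128 genes did not move the same way in all 3 pairs, and unstimulated replicate 1 lay at the IL-2 level. None of the fits that leave out libraries of 1 replicate turned its direction, with log2 fold changes from -2.54 to -1.62.

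Other genes missed the threshold with all libraries and no block but passed it with the block. Fos, an immediate early gene, had 146, 132 and 341 without and 43.7, 60.4 and 51.1 with IL-2 (log2 fold change -1.86, adjusted p = 0.19, and 0.0304 with the block). Dusp2, like Dusp1 a phosphatase of MAP kinases, had 57, 117 and 70.9 and then 32.5, 40.8 and 34.1 (adjusted p = 0.18, and 0.00639 with the block). Txnip, which binds thioredoxin and limits glucose uptake, had 146, 309 and 309 and then 71.3, 119 and 114 (adjusted p = 0.23, and 0.013 with the block). In each of these genes all IL-2 libraries lay below all unstimulated ones. Dtx1, a Notch pathway gene of anergic T cells, and the cell cycle genes E2f2 and Cdkn2d had lower IL-2 means as well, though only in Cdkn2d did the groups not overlap, with log2 fold changes of -2.58, -1.45 and -1.02 and adjusted p-values of 0.0434, 0.0205 and 0.00293 with the block. Of these, Dusp2, Txnip, Dtx1, E2f2 and Cdkn2d also fell without unstimulated replicate 1, and Fos did not pass there (adjusted p = 0.0585). With all libraries and no block none of 22 immediate early genes, of 18 genes of quiescence and lymph node homing or of 21 of cell cycle entry rose or fell (medians 0.49, 0.15 and -0.13). Without unstimulated replicate 1, 2 immediate early genes rose and 1 fell, 1 quiescence gene rose and 3 fell, and 1 cell cycle gene rose and 5 fell. Over all genes 7.09% rose and 5.8% fell in that fit, and 0.78% and 0.0733% with all libraries.

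On the list of MAP kinase and NF-κB feedback 1 of 20 genes fell, Dusp1, with 1 rising and 2 falling under the block (median log2 fold change 0.56), and 5 rose and 2 fell without unstimulated replicate 1. On the list of stress, glucocorticoid and FOXO-mTOR genes 1 of 20 rose, Trib3, and 1 fell, Ddit4 (median 0.22), and 5 rose and 4 fell without unstimulated replicate 1. None of 10 genes of the cyclic AMP response was called (median 0.70), whereas 6 of them rose without unstimulated replicate 1 (median 1.53). Over all genes 0.78% rose and 0.0733% fell with all libraries, and 7.09% and 5.8% without that library.

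Ramp3 and Gls2, a chaperone of G protein-coupled receptors and a glutaminase, turned on unstimulated replicate 1. Ramp3 (chromosome 11, 6658506 to 6677478) had an RPKM of 219, 2.91 and 2.25 without and 186, 100 and 71.5 with IL-2. Unstimulated replicate 1 was thus the highest of the 6 libraries. With all libraries the log2 fold change was 0.61 (standard error 1.12, edgeR adjusted p = 0.87), and without unstimulated replicate 1 it was 5.71 (adjusted p = 6.87e-06). Gls2 had 5.42, 0.11 and 0.0397 without and 6.66, 3.69 and 4.03 with IL-2, with log2 fold changes of 1.33 (adjusted p = 0.616) and 6.18 (adjusted p = 1.04e-05).

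The same held for other genes. Crem, a factor of the cyclic AMP response, had 229, 7.01 and 7.34 without and 185 ± 17.7 (SD, n = 3) with IL-2, and the nuclear receptor Nr4a3 had 222, 16.4 and 12.8 and then 122, 405 and 321. Their adjusted p-values were 0.607 and 0.486 with all libraries, and 1.33e-07 and 0.0153 without unstimulated replicate 1. Fosl2, an AP-1 factor, Tnfrsf9 (4-1BB), a costimulatory receptor, and Odc1, the first enzyme of polyamine synthesis, also had their highest unstimulated value in replicate 1. Without that library they passed the test (adjusted p = 0.000798, 0.0027 and 0.00112), Fosl2 and Tnfrsf9 with log2 fold changes of 3.88 and 2.77. In the 981 genes that rose only without unstimulated replicate 1, the median log2 ratio was 1.29 and 1.31 in pairs 2 and 3 and -0.13 in pair 1. In the 117 genes that rose with all libraries it was 1.68, 1.73 and 1.19, and all 117 were higher with IL-2 in every pair. Since those 981 genes were picked by fits on these same libraries, this is a description of them and no test.

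**Figure D4:**
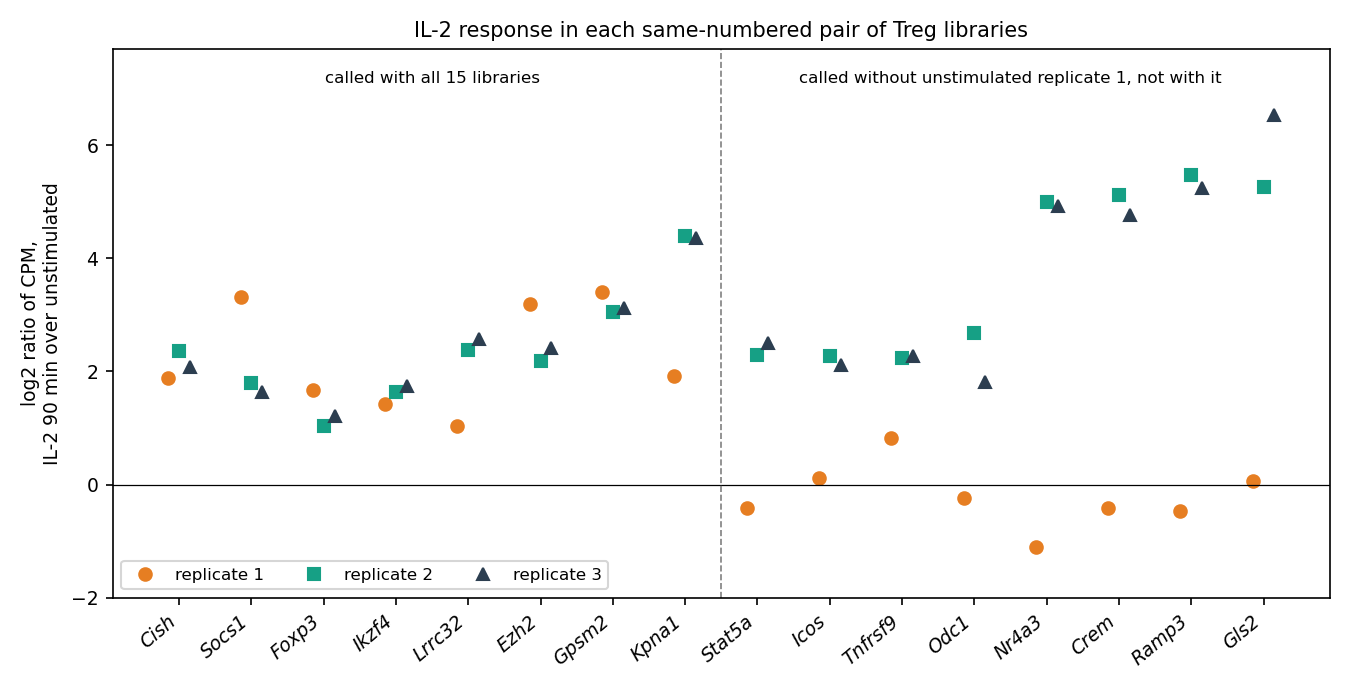
Log2 ratio of CPM (read counts scaled to library size), IL-2 at 90 min over unstimulated, in the 3 same-numbered pairs of Treg libraries (y axis) for 16 genes (x axis). The 8 genes on the left were called with all libraries and lie above 0 in every pair. In the 8 on the right pair 1 lies between -1.10 and 0.81 and pairs 2 and 3 between 1.80 and 6.53.

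Of the 116 genes that rose and have coordinates, 14 lie within 100 kb of another gene that rose, against 362 of 14788 tested genes (2.45%) that lie as close to one. They form 7 pairs. Ecm1 contains the microRNA precursor Mir7014, and Foxp3 overlaps the antisense transcript Ppp1r3fos, so each of these pairs may count the same reads. Aldh18a1 lies 7983 bases from Tctn3, a gene of the cilium, which had 2.03 ± 0.57 without and 8.53 ± 0.507 with IL-2 (SD, n = 3 each; edgeR adjusted p = 0.000222). The other pairs are Fam19a3 and Mov10, Nek8 and Tlcd1, Nipal1 and Txk, and Ube2h and Zc3hc1, with gaps of 21 to 61845 bases.

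All 117 genes that rose had the log2 CPM of every IL-2 library above that of every unstimulated one, as had 7.88% of all genes tested, and 10 of the 11 that fell had it below, as had 6.2%. The called genes had to differ in these libraries, so nothing is read from their own counts. Among the lists, 14 of 25 STAT5 targets, 8 of 23 Treg genes and 7 of 19 TNF ligands and receptors had IL-2 libraries wholly above the unstimulated ones, as had 1 of 21 genes of cell cycle entry and 0 of 18 of quiescence. Wholly below lay 1, 3 and 0 genes of the first 3 of these lists, 3 of cell cycle entry and 1 of quiescence.

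IL-2-REH, a variant of IL-2 that acts as a partial agonist of the same receptor, was given to other Tregs at the same dose and time. This comparison and the one with IL-2 at 4 hr share the 3 libraries of IL-2 at 90 min with the comparison above. The cytokines differed at 2 of the 15009 genes (0.0133%), Gpsm2 and Txnrd1, and both had risen with IL-2. Gpsm2 had an RPKM of 6.22, 3.34 and 2.84 with IL-2-REH, between the unstimulated and the IL-2 libraries, and Txnrd1 had 21.2, 18 and 17.5. The log2 differences from IL-2 were -1.70 (standard error 0.21) and -1.19 (standard error 0.15), each with an edgeR adjusted p of 0.00994. Cish, Ezh2, Rnf19b and Foxp3 had means of 114, 25.7, 62.8 and 114 with IL-2-REH, log2 differences from IL-2 of -1.02, -1.47, -1.23 and -0.61 with standard errors of 0.18, 0.26, 0.20 and 0.25. These did not pass the test (adjusted p = 0.165, 0.151, 0.113 and 1), which does not show that the cytokines act alike on them.

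Between IL-2 at 4 hr and at 90 min edgeR called 0 genes (0%), with 2551 at an unadjusted p under 0.05, while DESeq2 called 384 and limma 3. With the block 58 differed (0.386%), of which 6 had risen at 90 min, namely Lama5, Ecm1, Fam19a3, Gpld1, Frmd4b and Mgat4a. Lama5 had an RPKM of 6.52, 12.9 and 16.5 at 4 hr, a log2 difference from 90 min of 2.37 with the block (adjusted p = 0.00572). Ecm1 had 263, 530 and 390, and the secreted protein Fam19a3 had 3.95, 5.42 and 3.41 (log2 differences 1.15 and 1.24 with the block, adjusted p = 0.0398 and 0.0355). In these genes every library at 4 hr lay above every library at 90 min. Frmd4b and Mgat4a were lower at 4 hr, by log2 differences of -2.15 and -1.29 with the block. Kpna1 had means of 188 ± 31.8 at 90 min and 70.3 ± 32.1 at 4 hr (SD, n = 3 each), a log2 difference of -1.55 (adjusted p = 0.206, and 0.102 with the block).

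**Figure D5:**
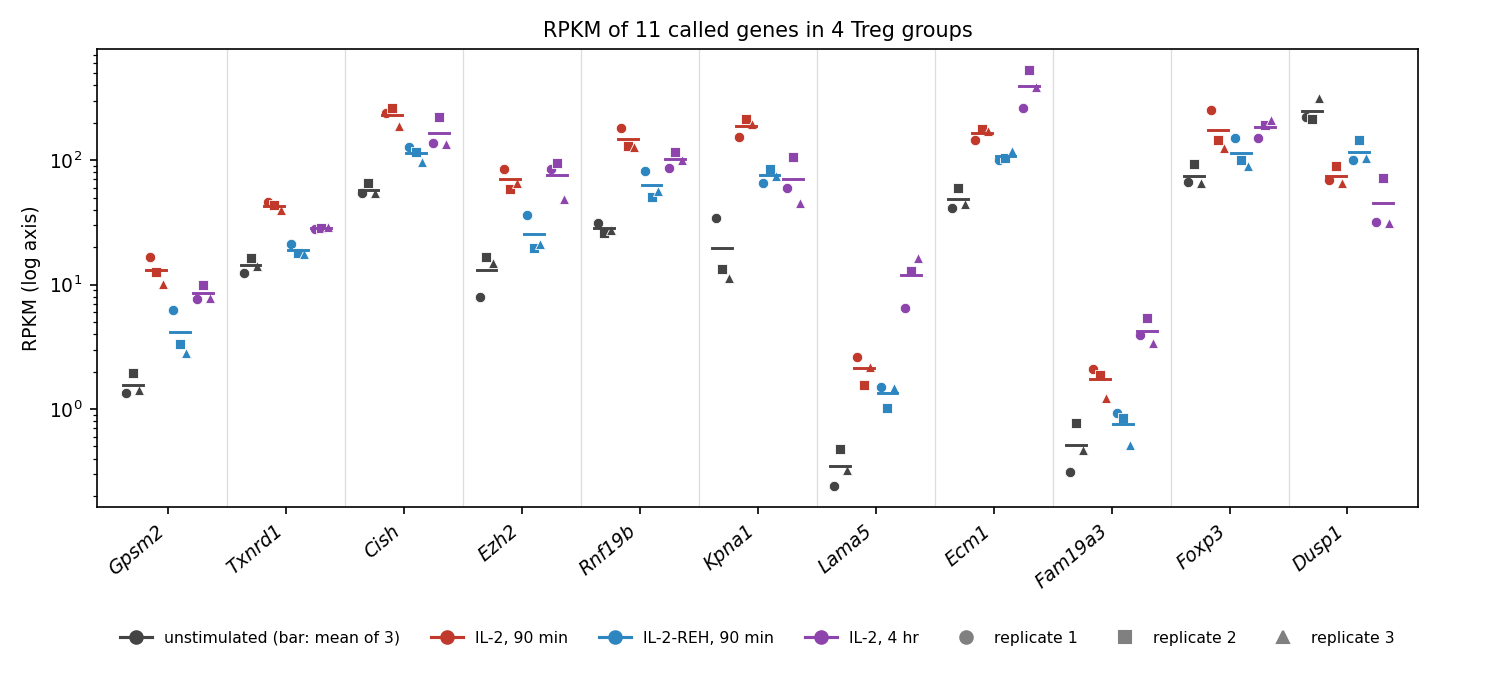
RPKM (y axis, log scale) of 11 genes (x axis) in unstimulated Tregs and in Tregs with IL-2 for 90 min, IL-2-REH for 90 min or IL-2 for 4 hr, with 1 point per library and a bar for the mean of 3. Gpsm2 and Txnrd1 lie lower with IL-2-REH than with IL-2 at 90 min, and Lama5, Ecm1 and Fam19a3 lie highest at 4 hr.

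CD8+ T cells from C57BL/6J mice were given IL-2 for the same time, with 1 library per group and so with no measure of replicate error. Of the 117 genes that rose in Tregs, 102 (87.2%) had a higher RPKM in the CD8+ library with IL-2 than in the unstimulated one, against 43.2% of all genes tested in Tregs. Of the 11 that fell, 9 were lower, as were 8223 of the 15009 genes tested in Tregs. Cish went from 1.87 to 30.6 and Ikzf4 from 0.577 to 9.29, log2 ratios of RPKM + 1 of 3.46 and 2.71. Mxd1, Socs1 and Rnf19b had log2 ratios of 2.07, 1.86 and 1.64, and Dusp1 and Cd5 of -3.06 and -1.98. Gpsm2, Txnrd1 and Aldh18a1, among the firmest genes in Tregs, had log2 ratios of 0.11, -0.02 and 0.09 in these CD8+ libraries. Ramp3 and Crem, which turned on 1 unstimulated Treg library, went from 2.48 to 18.8 and from 2.12 to 25.9 in them.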

How the data were processed

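RNA was measured by sequencing in 20 libraries, of which 6 are compared here. Per the labels and the methods of the study, single-end reads were mapped to mm10 (GRCm38) with Bowtie2 2.2.6 and TopHat2 2.1.1, and uniquely mapped reads were kept. For each of 31682 RefSeq transcripts the authors deposited the read count on exons, not normalized, and the RPKM, which scales it to exon length and mapped reads. The use of strand in counting is not given in the sources used here. Each of 23992 symbols was represented by its transcript with the highest read total (4343 had several).

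Counts of the 15 Treg libraries were tested across all genes with edgeR 4.0.16 in R 4.3.3 (TMM, filterByExpr, glmQLFit, glmQLFTest, 1 mean per group), with Benjamini-Hochberg adjustment over the 15009 genes kept. RPKM values are printed per library or as mean ± SD. Log2 CPM of pairs came from edgeR, and CD8+ log2 ratios from RPKM + 1 with no test. The scripts used Python 3.11.15 with pandas 2.3.3. The fit was also run on simulated counts, drawn with no replicate effect and no outlying library, so these cannot speak to either. The replicate numbers pair the libraries: deviations from the group means correlated, across genes, by 0.497, 0.555 and 0.418 in same-numbered pairs and by -0.486 to 0.24 in others.

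The genes named are those the paper names in these cells, the 15 largest increases and the 15 largest decreases (10 qualified) among called genes that moved alike in all 3 pairs, the 10 lowest adjusted p-values, and from 27 lists the members called with or without the block, the largest changes and the defining members. The members and lists were chosen with earlier results of these data known. The motif, the neighbour search and the genes shown with sequence were chosen after the values were seen. Alternatives were the block, DESeq2 1.42.0, its size factors, upper-quartile scaling, only the groups compared, other filters, the longest transcript, robust dispersion, limma 3.58.1 on log2(RPKM + 1) and log2(RPKM + 0.1), and fits without each library.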

Additional observations from a re-analysis of the deposited data

Results flagged for a closer look

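Gpsm2 and Txnrd1 stood out because the 90 min response differed between IL-2 and IL-2-REH by a direct test of the cytokines. The difference tested is between the cytokine groups, but the unstimulated libraries share in the filter and the estimate of the spread. The log2 difference, IL-2-REH minus IL-2, was -1.70 for Gpsm2 and -1.19 for Txnrd1 (edgeR adjusted p = 0.00994 each, and 0.0132 and 0.027 with the replicate number as a block), and all 3 IL-2-REH libraries lay below all 3 IL-2 libraries in both genes. Against unstimulated cells the log2 changes were 3.21 for IL-2 against 1.51 for IL-2-REH in Gpsm2, and 1.74 against 0.54 in Txnrd1. Both calls were lost without the block where any replicate number was left out of every group, and with limma. They were also lost in a fit of only the 2 groups compared, which leaves out the unstimulated libraries.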

How the results depend on the processing

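The number of genes called with IL-2 at 90 min was 128 and stayed between 108 and 145 with DESeq2's size factors, upper-quartile scaling, other filters, the longest transcript, robust dispersion and limma. It was 564 with DESeq2 (337 higher and 227 lower), 31 in a fit of only the 2 groups compared, 275 with the replicate block and 0 with both the replicate block and only those groups (1879 at an unadjusted p under 0.05 in edgeR). Over fits that leave out libraries of 1 replicate it ran from 0 to 4170, the highest with the replicate block and without unstimulated replicate 1, a fit added after the data had been seen, as were the fits of the lists. The cause was not tested. Between 48.8% and 100% of the calls were increases where any were made. Upper-quartile scaling set the median of all genes at -0.16, and the split of its calls was 109 higher and 18 lower. All genes of the 128 that could be fitted kept their sign in every alternative.

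For IL-2-REH against IL-2 the count was 2, 13 with DESeq2, 0 with limma at either pseudocount and in a fit of only the 2 groups, and 0 to 1 with replicates left out. For 4 hr against 90 min it was 0, 384 with DESeq2, 4 with its size factors in edgeR, 3 with limma and without a filter, 9 at a mean RPKM of at least 1, 7 with upper-quartile scaling, 58 with the replicate block and 0 to 1185 with replicates left out. The replicate block ended none of the calls of named genes with IL-2 at 90 min. Other settings ended many of these 59 calls. A fit of only the 2 groups compared ended 38 of the 58 it tested, and all 58 with the block as well. Without unstimulated replicate 1, 2 or 3, 0, 32 and 30 calls were lost. Without IL-2 replicate 1, 2 or 3, 13, 20 and 30 were lost.

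Of named genes, only Ikzf2, Il10, Ifng, Ctla4, Il2rg and Zbtb46, none of them called with all libraries, changed sign. Ikzf2 was at 0.04 on the log2 scale, -0.09 with limma, 0.00 at a mean RPKM of at least 1 and -0.06 with upper-quartile scaling, and Il10 at -0.03 and 0.12 with the block and only the 2 groups. With replicates left out Ikzf2 ran from -0.08 to 0.17, Il10 from -0.67 to 0.81, Ifng from -1.73 to 0.34, Ctla4 from -0.05 to 1.09, Il2rg from -0.31 to 0.03 and Zbtb46 from -0.32 to 2.50 (0.36 with all libraries).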

Other observations

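Of 25 tested receptors for other cytokines and chemokines none was called in edgeR with all libraries and no block, and 3 rose with the block. DESeq2 called 5, and without unstimulated replicate 1 edgeR called 11 higher and 3 lower (median log2 fold change 0.37, and 0.73 without that library). Over all genes edgeR called 7.09% higher and 5.8% lower in that fit, and 0.78% and 0.0733% with all libraries. DESeq2 called 564 of 20231 genes over all. Il12rb2, a chain of the IL-12 receptor, had an RPKM of 0.431, 0.823 and 0.575 in unstimulated replicates 1 to 3 and 2.09, 5.71 and 3.33 with IL-2 (log2 fold change 2.81, edgeR adjusted p = 0.158, and 0.00585 with the block). Il18r1 and the chemokine receptor Ccr4 had means of 17.2 ± 4.64 and 18.1 ± 1.6 without and of 31.7 ± 12.9 and 41.9 ± 12.7 with IL-2 (SD, n = 3 each; adjusted p = 0.00647 and 0.012 with the block). In all 3 genes the IL-2 libraries lay above the unstimulated ones. Nfkbiz, an inhibitor and cofactor of NF-κB, and Xbp1, a factor of the unfolded protein response, also rose with the block (adjusted p = 0.0227 and 0.0356, and 0.224 and 0.114 without it), and Xbp1 did so without unstimulated replicate 1 (adjusted p = 0.00141).

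Heat shock RNA differed within the unstimulated group. Hspa1a, the inducible HSP70, had an RPKM of 1.87, 18.4 and 400 in unstimulated replicates 1 to 3 and of 6.05, 4.48 and 12.4 with IL-2, so replicate 3 of the unstimulated group stood far above the other 5 libraries. The log2 fold change was -4.03 (adjusted p = 0.207), -4.60 without unstimulated replicate 1 (adjusted p = 0.0125). The cause was not tested.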
